A study of Homo sapiens with 39 samples.

Results

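RNA of JJN3 cells kept for 24 h with GSK-J4 was compared with RNA of JJN3 cells kept for 24 h in DMSO, the vehicle. JJN3 is a human plasma cell line from multiple myeloma, a cancer of antibody-secreting cells, and GSK-J4 is a cell-permeable inhibitor of the KDM6 enzymes, which remove methyl groups from lysine 27 of histone H3. The comparison uses 6 of the 39 sequenced libraries, 3 labelled GSK-J4 at 24 h and 3 labelled DMSO at 24 h, chosen by the sample numbers in the column names of the count table. All libraries come from JJN3 cells grown in RPMI with FCS, with RNA taken by Trizol and libraries made with an NEBNext Ultra kit. The rest were taken at the start or after treatment with GSK-J4, with ZnSO4, a zinc salt, or with DMSO for other times. Those of GSK-J4 and DMSO at 6 h and of ZnSO4 at 24 h serve below where the 24 h effect is set against them. The labels name no dose.

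Of 57773 gene identifiers, 14460 passed a filter on low counts and were tested. Library totals ran from 5761351 to 6018497 counts with GSK-J4 and from 7347387 to 8798556 counts with DMSO. The mitochondrial genome supplied 4.376 to 4.807% of counts with GSK-J4 and 4.753 to 5.194% with DMSO. Levels are in CPM, counts scaled to a common effective library size, and log2FC is the log2 fold change of GSK-J4 over DMSO with its standard error. A change given without a unit ("rose by") is a log2FC. Errors are SE for log2FC and SD for CPM. Each group has n = 3 libraries, and levels listed in threes are those of replicates 1, 2 and 3. Whether replicates were grown as separate cultures is not stated. The p-values therefore reflect the spread among the sequenced libraries, and that spread may be technical. A gene is called at an adjusted p under 0.05, with edgeR's quasi-likelihood test and Benjamini-Hochberg adjustment over all genes tested, unless another tool is named. No strand setting is named for these libraries, so a gene and its antisense neighbour may share reads.

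Zinc that is free in a cell is sensed by the transcription factor MTF1, which binds short metal response elements before the start of its target genes. Among its targets are the metallothioneins, small proteins rich in cysteine that hold zinc and copper, and SLC30A1, which pumps zinc out of the cell. The integrated stress response slows protein synthesis when amino acids are short or proteins misfold, and favours translation of ATF4, which pairs with C/EBP factors on composite elements of genes for amino acid synthesis and uptake. Plasma cells carry a heavy load of secreted protein and depend on the unfolded protein response, the proteasome and a high rate of ribosome production, which MYC drives.

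The stretches before the start of 6 genes on which the results below turn are printed here, 3 of zinc handling and 3 of the ATF4 response, so that they can be compared by eye. They are the 250 bases before the annotated start, 5′ to 3′ on the gene's own strand, from RefSeq (GRCh38.p14), a later build than the hg19 used for the alignment. In the zinc genes, capitals mark TGCACNC and TGCGCNC, the core of the metal response element. In the ATF4 response genes, capitals mark TGATGNAA, a composite C/EBP-ATF element. Both strands were searched, N stands for any base, and no marked stretches overlap.
MT2A: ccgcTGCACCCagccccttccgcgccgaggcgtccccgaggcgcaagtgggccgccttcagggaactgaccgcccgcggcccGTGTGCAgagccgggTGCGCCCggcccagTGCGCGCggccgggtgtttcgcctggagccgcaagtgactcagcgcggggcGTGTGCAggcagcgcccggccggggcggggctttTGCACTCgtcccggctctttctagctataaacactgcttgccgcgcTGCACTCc
MT1X: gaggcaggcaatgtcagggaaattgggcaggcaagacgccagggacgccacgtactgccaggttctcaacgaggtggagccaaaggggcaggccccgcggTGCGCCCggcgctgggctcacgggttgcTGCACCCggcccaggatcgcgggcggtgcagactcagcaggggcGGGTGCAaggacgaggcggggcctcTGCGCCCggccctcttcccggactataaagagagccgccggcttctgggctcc
SLC30A1: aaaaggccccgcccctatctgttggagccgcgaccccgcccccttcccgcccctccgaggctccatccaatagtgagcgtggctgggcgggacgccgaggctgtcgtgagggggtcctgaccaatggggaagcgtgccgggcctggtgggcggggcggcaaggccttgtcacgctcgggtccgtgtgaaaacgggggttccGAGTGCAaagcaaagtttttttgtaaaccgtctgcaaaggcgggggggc
CHAC1: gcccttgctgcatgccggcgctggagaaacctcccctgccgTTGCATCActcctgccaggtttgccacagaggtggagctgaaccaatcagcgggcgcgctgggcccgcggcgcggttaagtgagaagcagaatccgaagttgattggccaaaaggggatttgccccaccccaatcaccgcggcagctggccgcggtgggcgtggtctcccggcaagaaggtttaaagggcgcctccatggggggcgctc
TRIB3: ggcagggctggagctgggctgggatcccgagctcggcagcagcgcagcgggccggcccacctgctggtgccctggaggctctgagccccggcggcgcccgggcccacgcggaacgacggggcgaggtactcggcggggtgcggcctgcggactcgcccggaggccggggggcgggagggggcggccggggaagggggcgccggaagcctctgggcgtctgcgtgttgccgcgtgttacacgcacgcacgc
ASNS: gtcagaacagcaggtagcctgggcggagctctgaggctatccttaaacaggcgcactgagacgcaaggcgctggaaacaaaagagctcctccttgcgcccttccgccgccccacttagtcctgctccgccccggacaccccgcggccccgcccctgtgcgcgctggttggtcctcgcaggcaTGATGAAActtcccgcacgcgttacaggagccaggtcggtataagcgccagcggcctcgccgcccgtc

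MT2A lies at chr16:56608334-56608583 on the plus strand and held 7 metal response cores, a number reached by 0.031% of the 35116 promoters in the table. MT1X at chr16:56682220-56682469, plus strand, held 4, which 0.37% of promoters reached. SLC30A1 at chr1:211579162-211579411, minus strand, held 1, and 24.8% of promoters held at least 1. CHAC1 at chr15:40953221-40953470, plus strand, and ASNS at chr7:97872409-97872658, minus strand, held 1 composite element each, which 3.14% of promoters hold. TRIB3 at chr20:381045-381294, plus strand, held none of these letters in this window. A match describes the sequence and was not tested for binding.

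After 24 h with GSK-J4, genes of zinc storage and of amino acid synthesis and uptake were higher than in DMSO, and genes of ribosome production, glycolysis, chaperones and cell division were lower. Of the 14460 genes tested 4629 were called (32%), 2205 higher (15.2%) and 2424 lower (16.8%), and 5901 had an unadjusted p under 0.05. These shares are the background for each gene list below, and the median log2FC of all genes tested was 0.02. Large changes were mostly rises. At least 2-fold differences were called for 282 higher genes (1.95%) and 64 lower genes (0.443%), and at least 4-fold differences for 29 higher and 3 lower genes. Most calls were small, since 1421 of the higher and 2098 of the lower calls were under 1.5-fold. The groups did not overlap in 6380 genes (44.1%), and in 4416 of the 4629 called genes. List members named below were mostly taken by smallest p. Groups that lie apart are therefore usual among them and add no separate support. Scaling by library totals alone, without the composition factor (TMM), adds 0.09 to the typical log2FC and turns the share of calls that are higher to 68.1%, against 47.6% here and 46.4% with RLE size factors. It reverses the sign of no call but ends 898 of the lower ones, so small falls depend on the scaling. Of 1148 long non-coding genes tested 136 were called higher and 32 lower.

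**Figure D1:**
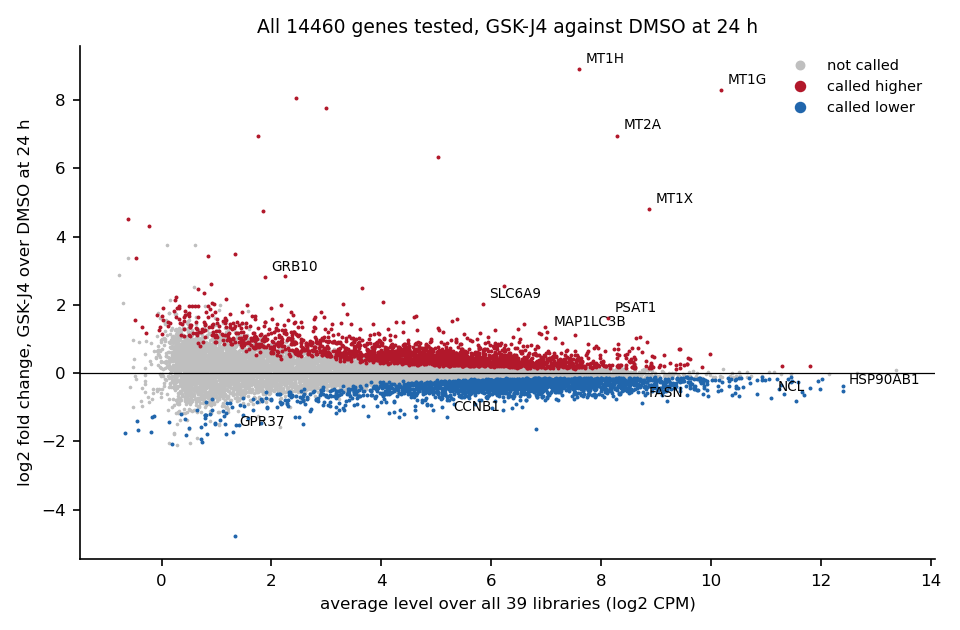
Log2 fold change of GSK-J4 over DMSO at 24 h (y axis) against the average level over all 39 libraries in log2 CPM (x axis), with 1 point for each of the 14460 genes tested. Red points are called higher, blue points called lower and grey points not called. The metallothioneins MT1H, MT1G, MT2A, MT1E (not labelled) and MT1X stand above all other genes with an average of at least 5 log2 CPM. Falls of abundant genes such as NCL and HSP90AB1 stay close to the body of points. The lowest point is the immunoglobulin segment IGKV3D-11.

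All 8 metallothioneins tested rose, and together they stood at 3307 to 3597 CPM with GSK-J4, against 26.6 to 36.5 CPM with DMSO (lowest and highest library). MT1G was the most abundant, with 1868, 2000 and 2028 CPM with GSK-J4, against 5.296, 5.43 and 8.45 CPM with DMSO (log2FC 8.28 ± 0.22, adjusted p = 5.5e-40). MT1H had 396, 379.6 and 397 CPM with GSK-J4, against 0.407, 0.775 and 1.25 CPM with DMSO (log2FC 8.91 ± 0.18, adjusted p = 3.9e-46), and MT2A had 528, 538 and 577 CPM with GSK-J4, against 3.802, 2.71 and 7.04 CPM with DMSO. The groups are apart by more than an order of magnitude in each of these genes. MT1E had 21.9, 25.6 and 25.1 CPM with GSK-J4, against 0.543, 0.258 and 0 CPM with DMSO (log2FC 6.34 ± 0.35, adjusted p = 1.8e-22). Where DMSO held almost no counts the fold depends on counting: MT1F had 239 counts with GSK-J4, against 1 with DMSO, which is 309.1 times as much per effective library (95% interval from counting, 54.95 to 12260). MT1M had 84 counts with GSK-J4 and 0 with DMSO, and MT1B had 6 counts and 0 counts. With 3 counts set over the DMSO group, the bounds of their folds were 36.2 and 2.59. These bounds take the GSK-J4 counts as exact and leave out their counting error. The intervals cover counting error only, and neither intervals nor bounds cover the spread among libraries. The call of MT1B ended with DESeq2 and without GSK-J4 replicate 1 or 2 or DMSO replicate 1 or 2, each left out in turn (log2FC 3.90 to 4.30, and 3.81 with DESeq2). The median log2FC of the 8 genes was 7.37 as fitted and 6.65 with the genes at 0 in DMSO set to their bounds. The gene copies MT1HL1, MT1XP1 and MT1P1 also rose (6.94, 4.74 and 3.48). MT1HL1 had 134 counts with GSK-J4, against 1 with DMSO, 173.3 times as much per effective library (95% interval from counting, 30.58 to 6896). Metallothionein copies resemble each other closely, and how reads were shared between them is uncertain.

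Zinc transporters changed less and in both directions. SLC30A1 had 204, 198 and 195 CPM with GSK-J4, against 117, 109.9 and 115 CPM with DMSO, and its groups did not overlap. Among the SLC30 exporters 4 of 7 rose and 1 fell, with a median log2FC of 0.28. SLC30A7 and SLC30A5, which load zinc into the early secretory pathway, were called higher (0.54 ± 0.08 and 0.28 ± 0.08), and so was SLC30A9 (0.21 ± 0.07; not called without GSK-J4 replicates 2 or 3 or DMSO replicate 3, each left out in turn (log2FC 0.13 to 0.21)). SLC30A3, a transporter of secretory vesicles, was called lower (log2FC −1.03 ± 0.32, adjusted p = 0.0083; not called without GSK-J4 replicate 3 or DMSO replicate 1, each left out in turn (log2FC −0.89 to −0.69)). Of 11 SLC39 importers 4 rose and 2 fell (median 0.13). Without the filter on low counts 2 exporters and 2 importers were called higher. SLC39A9 rose with 104, 103 and 99.9 CPM with GSK-J4, against 73.6, 73.9 and 64.2 CPM with DMSO (log2FC 0.53 ± 0.07, adjusted p = 1.9e-08), and SLC39A13, a Golgi transporter, had 19.9, 20.4 and 15.7 CPM with GSK-J4, against 12.5, 10.5 and 12.8 CPM with DMSO (log2FC 0.65 ± 0.14, adjusted p = 0.00015). SLC39A7, which releases zinc from the endoplasmic reticulum (ER), rose by 0.34 ± 0.10. SLC39A4, the intestinal type importer of the cell surface, fell with 28.9, 32.8 and 31.4 CPM with GSK-J4, against 48.9, 47.1 and 53.05 CPM with DMSO (log2FC −0.68 ± 0.10, adjusted p = 3.7e-07), with no overlap between the groups. SLC39A6 was also called lower (−0.19 ± 0.05), but not with library totals alone.

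Regulators of the integrated stress response were mostly higher at 24 h. Of 17 regulators 10 rose and 2 fell, with a median log2FC of 0.38. CEBPB, a partner of ATF4, had 22.6, 20.8 and 22.8 CPM with GSK-J4, against 8.42, 11.6 and 8.29 CPM with DMSO (log2FC 1.21 ± 0.15, adjusted p = 3.1e-09). SESN2, which restrains mTORC1 when leucine is short, had 159, 204 and 197 CPM with GSK-J4, against 81.5, 71.8 and 74.5 CPM with DMSO (log2FC 1.30 ± 0.08, adjusted p = 2.7e-20). TRIB3, a pseudokinase that holds ATF4 back, had 144, 158 and 151 CPM with GSK-J4, against 84.6, 82.5 and 89.8 CPM with DMSO (log2FC 0.82 ± 0.06, adjusted p = 4.3e-17). In each of these genes all libraries of GSK-J4 lay above all libraries of DMSO. CEBPG, another partner, and EIF2AK3, the ER kinase PERK, rose by 0.81 ± 0.06 and 0.61 ± 0.09, and ATF4 itself by 0.20 ± 0.05 (adjusted p = 0.00125; not called without the filter on low counts). CHAC1, which degrades glutathione, was low in both groups, with 9.35, 9.83 and 12.9 CPM with GSK-J4, against 1.901, 1.81 and 1.72 CPM with DMSO. EIF2S1, the subunit of the initiation factor that the stress kinases phosphorylate, fell (−0.29 ± 0.06), and ATF3 was called slightly lower (−0.25 ± 0.08; not called without GSK-J4 replicate 1 or DMSO replicate 3, each left out in turn (log2FC −0.22 to −0.18)).

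Genes for making serine, asparagine and one-carbon units rose in 15 of 19 cases with 3 falling, at a median log2FC of 0.70. PSAT1 of serine synthesis had 365, 411 and 407 CPM with GSK-J4, against 132, 131 and 126 CPM with DMSO (log2FC 1.61 ± 0.06, adjusted p = 4.2e-33). PHGDH, the first enzyme of that pathway, had 763, 758 and 744 CPM with GSK-J4, against 381, 352 and 383 CPM with DMSO (log2FC 1.02 ± 0.05, adjusted p = 5.7e-24), and ASNS, asparagine synthetase, 220.0, 218 and 230.1 CPM with GSK-J4, against 98.5, 97.5 and 97.6 CPM with DMSO (log2FC 1.19 ± 0.07, adjusted p = 1.1e-21). The rise was more than 2-fold in all 3, with no overlap between the groups. ALDH1L2 and MTHFD2 of the mitochondrial one-carbon pathway rose by 1.05 ± 0.08 and 0.75 ± 0.05. In contrast MTHFD1 of the cytosolic pathway fell (−0.25 ± 0.05), as did ALDH18A1 of proline synthesis (−0.55 ± 0.06) and GOT2, the mitochondrial aspartate aminotransferase (−0.51 ± 0.05).

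Amino acid transporters rose in 10 of 13 cases with 1 falling (median 0.44). SLC6A9, which imports glycine, had 78.2, 74.9 and 75.7 CPM with GSK-J4, against 20.9, 16.8 and 18.8 CPM with DMSO (log2FC 2.02 ± 0.09, adjusted p = 9e-28). SLC7A11, which imports cystine, had 81.1, 106 and 105 CPM with GSK-J4, against 30.96, 32.5 and 37.7 CPM with DMSO (log2FC 1.54 ± 0.09, adjusted p = 7.1e-22). Both were raised in every GSK-J4 library. SLC7A1 for arginine and lysine, SLC38A1 and SLC1A5 for glutamine and SLC7A5 for leucine rose by 0.68, 0.57, 0.44 and 0.41 (log2FC). SLC38A5, a glutamine transporter as well, fell with 252 ± 8.51 CPM with GSK-J4, against 342 ± 10.6 CPM with DMSO (log2FC −0.44 ± 0.05, adjusted p = 7.2e-10).

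Cytosolic tRNA synthetases, the enzymes that charge tRNAs for protein synthesis, split into 12 that rose and 5 that fell out of 20 (median 0.23). GARS1 for glycine had 998, 1058 and 1003 CPM with GSK-J4, against 632, 633 and 603 CPM with DMSO (log2FC 0.71 ± 0.04, adjusted p = 1.1e-20). AARS1, SARS1, CARS1, WARS1 and MARS1 rose by 0.85, 0.73, 0.93, 0.66 and 0.65. Both subunits of the phenylalanine enzyme, FARSA and FARSB, fell (−0.65 ± 0.07 and −0.27 ± 0.05), and so did KARS1 for lysine and RARS1 for arginine (−0.33 ± 0.05 and −0.46 ± 0.08). VARS1 for valine was also called lower (−0.18 ± 0.06; not called without GSK-J4 replicate 1 or DMSO replicate 1, each left out in turn (log2FC −0.16 to −0.15)). Among the 17 mitochondrial tRNA synthetases none rose and 6 fell (median −0.22), or 4 with library totals alone. YARS2 had 17.1, 17.99 and 14.7 CPM with GSK-J4, against 27.8, 29.4 and 31.8 CPM with DMSO (log2FC −0.84 ± 0.11, adjusted p = 3e-09). LARS2 and IARS2 fell, with log2FC −0.46 ± 0.09 and −0.34 ± 0.06.

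Stress-induced secreted factors were tested for 7 genes, of which 4 rose and 1 fell. INHBE, a chain of the activin and inhibin family, had 6.83, 6.12 and 6.003 CPM with GSK-J4, against 1.22, 1.29 and 0.782 CPM with DMSO (log2FC 2.48 ± 0.33, adjusted p = 8.3e-09). ADM2, a peptide hormone of the calcitonin family, had 12.04, 15.6 and 13.8 CPM with GSK-J4, against 2.99, 3.36 and 3.91 CPM with DMSO (log2FC 2.01 ± 0.20, adjusted p = 1.3e-12). VEGFA, the vascular growth factor, had 207, 219.7 and 219.5 CPM with GSK-J4, against 103, 99.6 and 95.9 CPM with DMSO (log2FC 1.11 ± 0.06, adjusted p = 4.9e-23). The groups were apart in all 3 genes. STC2, a secreted glycoprotein, rose by 1.15 ± 0.13, and TNFSF9, the ligand of CD137, fell, with log2FC −0.65 ± 0.15.

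**Figure D2:**
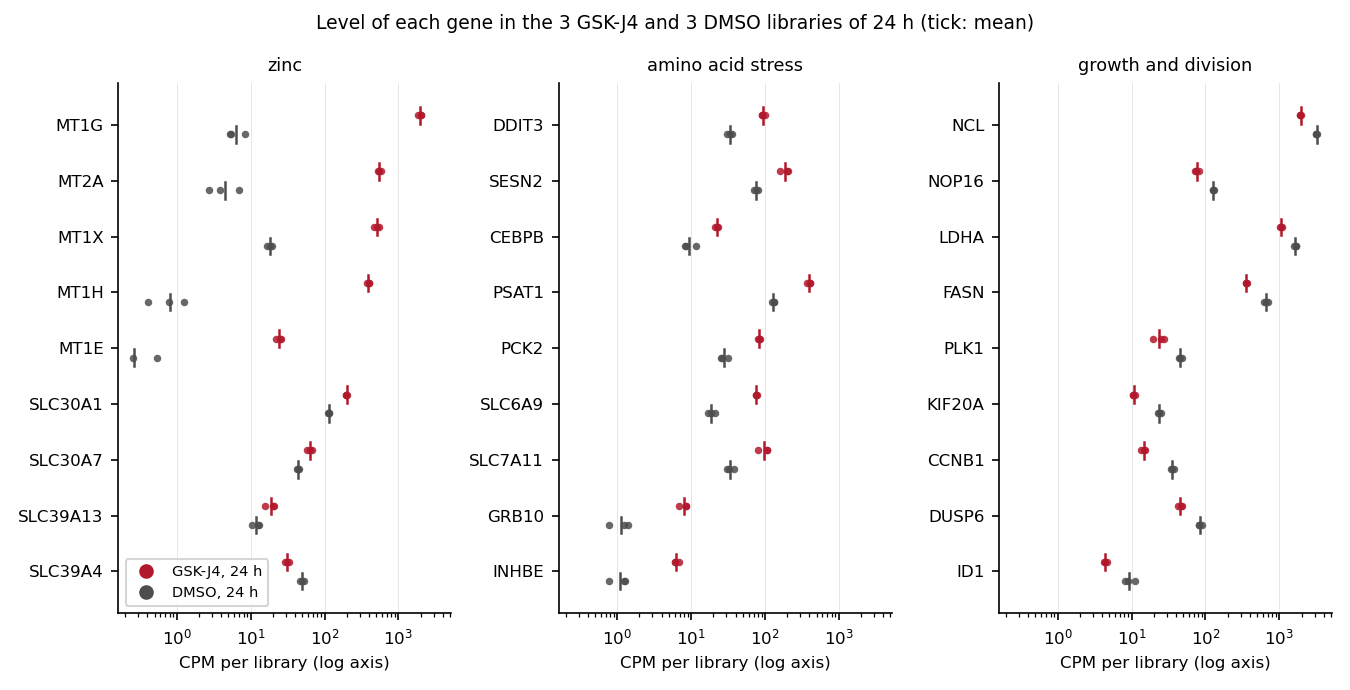
CPM on a log axis (x) in each of the 3 GSK-J4 libraries (red, upper dots) and 3 DMSO libraries (grey, lower dots) of 24 h for 27 genes (y), with a tick at the group mean. Metallothioneins are apart by more than an order of magnitude, the group means of SLC6A9 and INHBE by more than 4-fold, and NCL, LDHA and CCNB1 lie lower with GSK-J4. The DMSO library of MT1E that holds 0 CPM is not drawn.

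Genes of the unfolded protein response moved in both directions. Of 30 genes 12 rose and 4 fell, with a median log2FC of 0.06. ERN1, the sensor kinase IRE1, had 123, 118 and 128 CPM with GSK-J4, against 53.6, 48.4 and 52.3 CPM with DMSO (log2FC 1.26 ± 0.08, adjusted p = 2.1e-20). SEL1L and HERPUD1, parts of the complex that sends misfolded proteins out for degradation, had 496 ± 3.92 CPM with GSK-J4, against 306 ± 12.2 CPM with DMSO and 876 ± 33.1 CPM with GSK-J4, against 526 ± 15.5 CPM with DMSO (log2FC 0.69 ± 0.05 and 0.74 ± 0.05). EDEM1, which marks glycoproteins for that route, and DNAJB9, a co-chaperone in it, rose by 0.87 ± 0.08 and 1.02 ± 0.07. The calcium-binding chaperone CALR fell with 1422 ± 31.2 CPM with GSK-J4, against 1881 ± 43.4 CPM with DMSO (log2FC −0.40 ± 0.04, adjusted p = 3.3e-12). HSP90B1 and PDIA4 were called lower, with log2FC −0.18 ± 0.05 and −0.18 ± 0.05, and ERO1A with −0.16 ± 0.06 (not called without GSK-J4 replicates 1 or 2 or DMSO replicates 1 or 2, each left out in turn (log2FC −0.16 to −0.12)), but with library totals alone only 1 member of the list, CALR, was called lower.

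Among 25 genes of protein translocation and of COPII coats, which bud vesicles from the ER, 9 rose and 2 fell (median 0.12), and 18 were called higher with library totals alone. SEC24D, a cargo adaptor of the coat, had 141, 134 and 137 CPM with GSK-J4, against 73.9, 77.8 and 71.3 CPM with DMSO (log2FC 0.88 ± 0.07, adjusted p = 5.1e-17), and its groups did not overlap. SEC61A1 of the translocation channel, SEC63, SSR1 and SEC23B rose by 0.28 ± 0.04, 0.31 ± 0.05, 0.26 ± 0.05 and 0.33 ± 0.07. SRP14 of the signal recognition particle and SPCS1 of the signal peptidase fell, with log2FC −0.29 ± 0.05 and −0.26 ± 0.06.

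Autophagy and lysosome genes rose in 17 of 43 cases with 3 falling (median 0.10). MAP1LC3B, which encodes LC3B of the autophagosome membrane, had 481, 538 and 564 CPM with GSK-J4, against 236, 235 and 223 CPM with DMSO (log2FC 1.19 ± 0.06, adjusted p = 1.5e-25). SQSTM1, the cargo receptor p62, had 1699, 1802 and 1803 CPM with GSK-J4, against 1202, 1166 and 1201 CPM with DMSO (log2FC 0.57 ± 0.05, adjusted p = 1.9e-14). WIPI1, which acts at the forming autophagosome, had 46.2, 43.02 and 44.5 CPM with GSK-J4, against 24.6, 27.4 and 24.6 CPM with DMSO (log2FC 0.80 ± 0.10, adjusted p = 2.4e-09). All 3 were higher in every GSK-J4 library. GABARAPL1, a relative of LC3B, RRAGC, which recruits mTORC1 to lysosomes, and ATP6V1A of the lysosomal proton pump rose by 0.64 ± 0.09, 0.55 ± 0.08 and 0.40 ± 0.06. LAMP1, CTSA and ATG16L1 were called lower, with log2FC −0.14 ± 0.05, −0.20 ± 0.06 and −0.25 ± 0.08, and none of these 3 was called with library totals alone or without DMSO replicate 3.

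Antioxidant genes split. Of 29 genes of the NRF2, glutathione and thioredoxin systems 9 rose and 11 fell, at a median of −0.07. HMOX1, which degrades haem, had 184, 253 and 248 CPM with GSK-J4, against 110.4, 103 and 117 CPM with DMSO (log2FC 1.06 ± 0.12, adjusted p = 4.7e-11). OSGIN1 rose by 1.65 ± 0.42, SRXN1 by 0.90 ± 0.24, ME1 by 0.59 ± 0.07, GCLM of glutathione synthesis by 0.40 ± 0.07, GSR by 0.39 ± 0.08 and TXNRD1 by 0.24 ± 0.06. SOD2, the mitochondrial superoxide dismutase, had 224, 219 and 214 CPM with GSK-J4, against 321, 309.8 and 332 CPM with DMSO (log2FC −0.55 ± 0.05, adjusted p = 1.3e-14). TKT of the pentose phosphate pathway fell, with log2FC −0.48 ± 0.05. Of 15 iron genes 4 rose and 4 fell, or 7 and 2 with library totals alone. FTH1, the heavy chain of the iron store ferritin, had 623, 711 and 738 CPM with GSK-J4, against 371, 348 and 373 CPM with DMSO (log2FC 0.92 ± 0.07, adjusted p = 1.3e-16), and its many pseudogenes may share reads with it. The transferrin receptor TFRC fell with 920.4 ± 14.8 CPM with GSK-J4, against 1092 ± 25.3 CPM with DMSO (log2FC −0.25 ± 0.05, adjusted p = 0.00018), HMOX2, the constitutive haem oxygenase, had −0.61 ± 0.13, and SLC25A28, which brings iron into mitochondria, rose by 0.32 ± 0.07.

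Heat shock genes fell more often than they rose. Of the 23 genes of the cytosolic heat shock list, which also holds the chaperonin of mitochondria, an ER chaperone and the transcription factor HSF2, 15 fell and 4 rose, with a median log2FC of −0.45. HSP90AB1 had 4674, 4950.0 and 4817 CPM with GSK-J4, against 6948, 6888 and 6818 CPM with DMSO (log2FC −0.52 ± 0.04, adjusted p = 1e-15). DNAJA1, a co-chaperone of HSP70, had 354, 343 and 337 CPM with GSK-J4, against 529, 537 and 534 CPM with DMSO (log2FC −0.63 ± 0.06, adjusted p = 3.5e-13). HSPA4, which exchanges nucleotides on HSP70, had 150.3, 151 and 151 CPM with GSK-J4, against 249, 227 and 227 CPM with DMSO (log2FC −0.64 ± 0.06, adjusted p = 6.6e-14). None of the groups overlapped in these genes. HSPD1 and HSPE1, the chaperonin of the mitochondrial matrix, fell, with log2FC −0.58 ± 0.05 and −0.66 ± 0.07, and AHSA1, which activates HSP90, had −0.62 ± 0.06. The rises were those of HSPA6, a strictly inducible HSP70 (8.99, 4.08 and 6.53 CPM with GSK-J4, against 2.17, 1.03 and 1.41 CPM with DMSO; log2FC 2.08 ± 0.45, adjusted p = 0.00019), SERPINH1, the collagen chaperone of the ER (0.58 ± 0.12), DNAJB1 (0.54 ± 0.20; not called without GSK-J4 replicate 1 or DMSO replicates 1, 2 or 3, each left out in turn (log2FC 0.43 to 0.56)) and the factor HSF2 (0.24 ± 0.09; not called without GSK-J4 replicate 1 or DMSO replicates 1 or 3, each left out in turn (log2FC 0.20 to 0.24)). The count of rises was 2 without GSK-J4 replicate 1, DMSO replicate 1 or DMSO replicate 3. Proteasome subunits fell in 25 of 34 cases and rose in none (median −0.21), but in 11 with library totals alone. PSMD2, a subunit of the regulatory cap, had 456, 464 and 452 CPM with GSK-J4, against 583, 589 and 594 CPM with DMSO (log2FC −0.36 ± 0.04, adjusted p = 4.8e-10). PSME2 of the immune activator, PSMB7 of the core and PSMC4 of the ATPase ring fell, with log2FC −0.35 ± 0.06, −0.29 ± 0.05 and −0.30 ± 0.06.

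Ribosome production genes were lower. Of 40 ribosome biogenesis genes 37 fell and none rose, with a median log2FC of −0.42, and 31 fell with library totals alone. NOB1, which trims the small subunit RNA, had 95.8, 91.6 and 97.6 CPM with GSK-J4, against 150.5, 159 and 159.6 CPM with DMSO (log2FC −0.72 ± 0.06, adjusted p = 1.8e-14). NOLC1, a nucleolar scaffold of box C/D and H/ACA particles, had 550.4, 549 and 551 CPM with GSK-J4, against 785, 777 and 756 CPM with DMSO (log2FC −0.49 ± 0.04, adjusted p = 1.8e-14), and DKC1, the pseudouridine synthase, 244, 259.6 and 252 CPM with GSK-J4, against 363, 363 and 367 CPM with DMSO (log2FC −0.53 ± 0.05, adjusted p = 2.7e-13). The groups were apart in these genes. MYC had 893, 821 and 828 CPM with GSK-J4, against 1332, 1297 and 1411 CPM with DMSO (log2FC −0.67 ± 0.09, adjusted p = 9.1e-09). MYC was also called lower with ZnSO4 against DMSO at 24 h (−0.46 ± 0.09). GSK-J4 against ZnSO4 gave −0.21 ± 0.09 for MYC and was not called (adjusted p = 0.0816). Whether the fall of MYC bears on the ribosome biogenesis genes was not tested. Of 13 members of the MYC network 2 fell and 1 rose. MAX, the obligate partner of MYC, fell, with log2FC −0.38 ± 0.08, and MGA, a MAX partner that represses, rose by 0.39 ± 0.09. Cytosolic ribosomal proteins fell in 49 of 77 cases with 1 rise (median −0.17), by at most 0.35 on the log2 scale. Their count of falls was 16 with library totals alone and 26 without DMSO replicate 3. RPS15 had 485, 480.4 and 488 CPM with GSK-J4, against 583, 604 and 669 CPM with DMSO (log2FC −0.35 ± 0.06, adjusted p = 3.3e-06), RPL10A fell, with log2FC −0.32 ± 0.05, and RPS18, with 453, 754 and 629 CPM with GSK-J4, against 477, 332 and 484 CPM with DMSO, was the member called higher (log2FC 0.51 ± 0.12, adjusted p = 0.00067), though its groups overlap. Ribosomal protein genes have many pseudogenes that may share their reads.

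Translation factors followed, with 19 of 30 falling and 4 rising (median −0.26), or 17 and 5 with library totals alone. EIF3B, a scaffold of initiation factor 3, had 1122, 1114 and 1103 CPM with GSK-J4, against 1612, 1569 and 1620.0 CPM with DMSO (log2FC −0.52 ± 0.04, adjusted p = 4.7e-15). EIF4G1, EIF4G2, EIF5A and EIF4A2 fell, with log2FC −0.48 ± 0.05, −0.43 ± 0.05, −0.45 ± 0.04 and −0.37 ± 0.05. EIF4EBP1, which binds and blocks the cap-binding factor, had 270.3, 272 and 255 CPM with GSK-J4, against 199, 199 and 208 CPM with DMSO (log2FC 0.40 ± 0.06, adjusted p = 1.6e-07), and it and EIF2S2 and EIF1 rose (0.40, 0.30 and 0.28). EIF2S3 was called higher by 0.14 ± 0.05 (not called without GSK-J4 replicates 1, 2 or 3 or DMSO replicates 1 or 3, each left out in turn (log2FC 0.10 to 0.14)). Nucleotide synthesis genes fell in 18 of 24 cases and rose in none (median −0.25), with 14 falling under library totals alone. IMPDH1 of guanine nucleotide synthesis had 72.1, 66.9 and 66.03 CPM with GSK-J4, against 112, 109 and 108 CPM with DMSO (log2FC −0.68 ± 0.07, adjusted p = 6.1e-13). CTPS1 for CTP, PPAT and PAICS for purines fell, with log2FC −0.48 ± 0.06, −0.49 ± 0.07 and −0.39 ± 0.05.

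Glycolysis genes fell in 17 of 19 cases, or 15 with library totals alone, with 1 rise and a median log2FC of −0.40. LDHA, lactate dehydrogenase, had 1062, 1076 and 1021 CPM with GSK-J4, against 1574, 1669 and 1701 CPM with DMSO (log2FC −0.65 ± 0.05, adjusted p = 1.7e-17). HK2, hexokinase, had 108, 117 and 112 CPM with GSK-J4, against 186, 174 and 192 CPM with DMSO (log2FC −0.71 ± 0.07, adjusted p = 2.4e-13). SLC16A1, which exports lactate, had 615, 624 and 649.9 CPM with GSK-J4, against 923, 918 and 922 CPM with DMSO (log2FC −0.55 ± 0.05, adjusted p = 7.7e-15). In all 3 the highest GSK-J4 library lay under the lowest DMSO library. PGAM1, TPI1 and GPI fell, with log2FC −0.57 ± 0.07, −0.48 ± 0.05 and −0.40 ± 0.04, and ENO2 was called higher by 0.39 ± 0.13 (not called without GSK-J4 replicate 3 or DMSO replicates 2 or 3, each left out in turn (log2FC 0.30 to 0.38)). SLC2A1, the glucose carrier, was among 5 of 19 hypoxia response genes that fell, with 119, 123 and 123 CPM with GSK-J4, against 179, 173 and 183 CPM with DMSO (log2FC −0.55 ± 0.07, adjusted p = 9.1e-10), and NDRG1 was another (−0.36 ± 0.05). The count of falls in that list was 2 with library totals alone or without GSK-J4 replicate 2, and 3 without GSK-J4 replicate 3 or DMSO replicate 2.

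In mitochondria, 14 of 22 genes of the tricarboxylic acid cycle fell and none rose (median −0.19), with 6 falling under library totals alone and 9 without GSK-J4 replicate 2. FH, fumarase, had 163, 150.4 and 143 CPM with GSK-J4, against 201, 197 and 208 CPM with DMSO (log2FC −0.41 ± 0.06, adjusted p = 2.2e-08), and PDHB of pyruvate dehydrogenase and CS, citrate synthase, fell, with log2FC −0.49 ± 0.07 and −0.39 ± 0.06. Nuclear genes of the respiratory chain fell in 39 of 56 cases and rose in none (median −0.23), in 19 with library totals alone and in 23 without DMSO replicate 3. ATP5F1A of ATP synthase had 1213, 1196 and 1208 CPM with GSK-J4, against 1561, 1562 and 1624 CPM with DMSO (log2FC −0.39 ± 0.04, adjusted p = 3.5e-12), and CYC1, cytochrome c1, fell, with log2FC −0.40 ± 0.05. Of 13 mRNAs of the mitochondrial genome 9 fell and 2 rose (median −0.36), with 7 falling under library totals alone. The falls of MT-ND1 and MT-ND2 (both −0.16 ± 0.06) were not called with library totals alone. Their groups overlap, and each kept its call in 2 of the 6 fits that leave out a library. MT-CO3 had 2830.0, 2462 and 2618 CPM with GSK-J4, against 4263, 4605 and 4956 CPM with DMSO (log2FC −0.81 ± 0.05, adjusted p = 5.1e-19), while MT-ND6, the 1 mRNA read from the light strand, had 894, 830.4 and 839.9 CPM with GSK-J4, against 561, 604 and 617 CPM with DMSO (log2FC 0.53 ± 0.06, adjusted p = 1.5e-10). MT-ATP6 and MT-ATP8, which share a transcript, fell, with log2FC −0.63 ± 0.05 and −0.66 ± 0.08, and MT-ND5, the neighbour of MT-ND6 on the other strand, was called higher by 0.21 ± 0.06 (not called without DMSO replicate 1 (log2FC 0.15)).

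Lipid synthesis was lower at single enzymes more than as a whole. FASN, fatty acid synthase, had 349, 359 and 365 CPM with GSK-J4, against 696, 616 and 665 CPM with DMSO (log2FC −0.88 ± 0.07, adjusted p = 2.4e-15). It belongs to a list of 17, of which 6 fell and 2 rose, or 4 and 2 with library totals alone. SCD, which makes unsaturated fatty acids, and ACLY, which supplies acetyl-CoA, fell, with log2FC −0.37 ± 0.07 and −0.28 ± 0.05. Of 23 cholesterol synthesis genes 8 fell and 3 rose (median −0.12), or 6 and 3 with library totals alone. SREBF2, the factor that drives the pathway, rose by 0.20 ± 0.05 (adjusted p = 0.00288; not called without the filter on low counts).

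**Figure D3:**
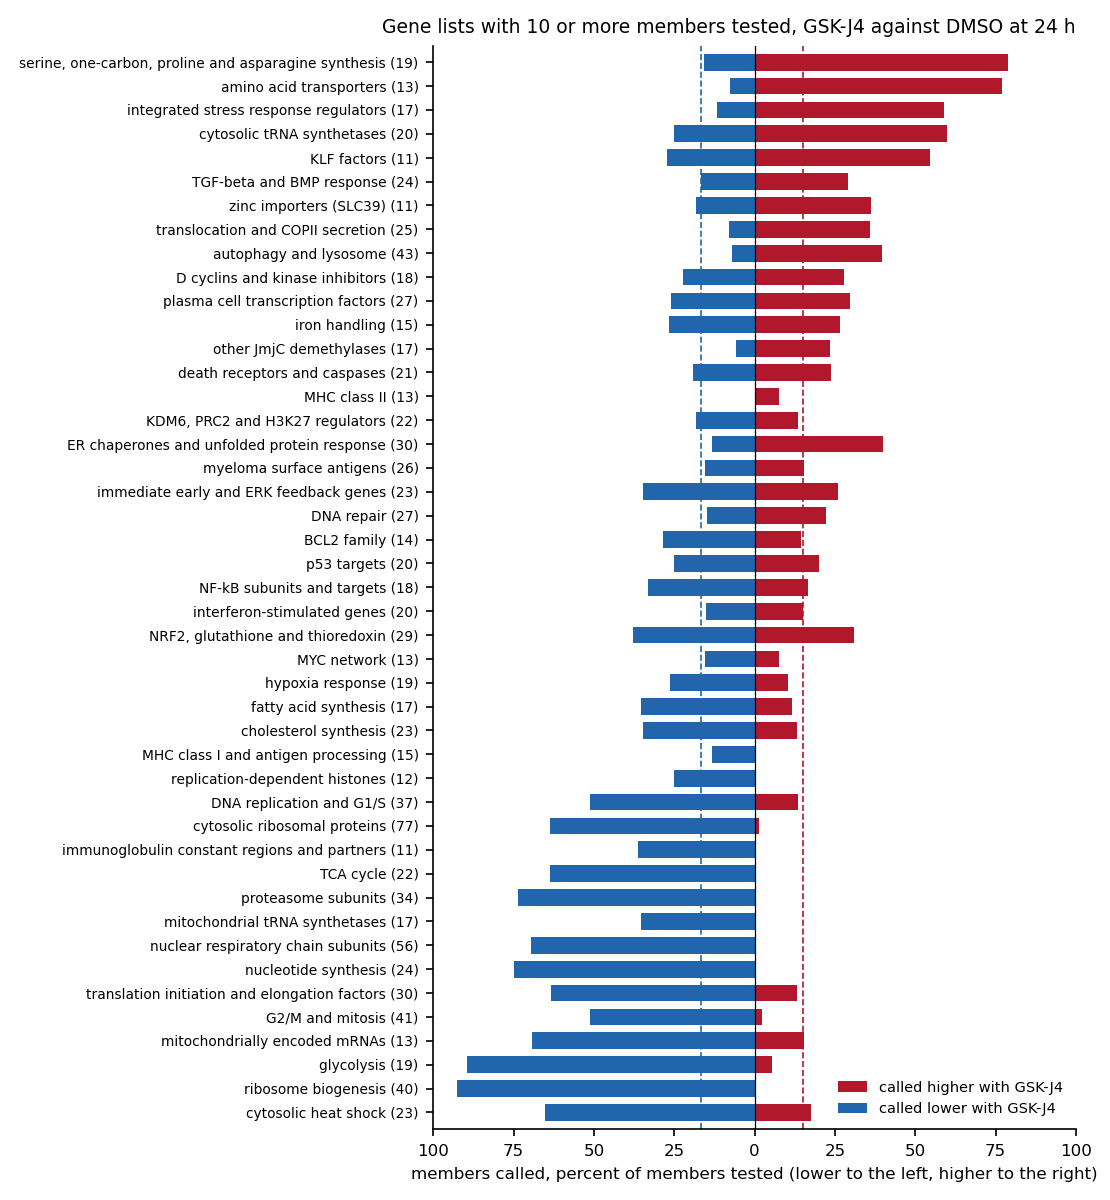
Share of tested members called higher (red, to the right) and called lower (blue, to the left) at 24 h with GSK-J4, in percent of members tested (x axis), for each gene list with 10 or more members tested (y axis, number tested in parentheses), ordered by median log2FC. Dashed lines mark the shares over all genes, 15.2% higher and 16.8% lower. Amino acid lists reach far to the right, and ribosome biogenesis, glycolysis, nucleotide synthesis and the proteasome far to the left.

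Cell division genes were lower at 24 h. Of 41 genes of G2/M and mitosis 21 fell and 1 rose (median −0.27), or 17 and 3 with library totals alone. CCNB1, cyclin B1, had 14.7, 15.2 and 13.6 CPM with GSK-J4, against 35.4, 33.7 and 37.2 CPM with DMSO (log2FC −1.29 ± 0.14, adjusted p = 4.6e-11). KIF20A, a kinesin of the late spindle, had 11.1, 10.6 and 10.6 CPM with GSK-J4, against 24.7, 23.2 and 22.7 CPM with DMSO (log2FC −1.13 ± 0.17, adjusted p = 1.3e-07). CDC20, which activates the anaphase-promoting complex, had 54.8, 53.03 and 51.7 CPM with GSK-J4, against 88.4, 82.9 and 87.3 CPM with DMSO (log2FC −0.70 ± 0.10, adjusted p = 4.9e-08). The groups were apart in these 3 genes. CDCA8, CCNA2 and TPX2 fell, with log2FC −0.68 ± 0.09, −0.60 ± 0.08 and −0.49 ± 0.06, and CKS1B was the gene called higher (0.25 ± 0.07; not called without the filter on low counts). In bulk RNA, fewer cells in a stage of the cycle and less RNA per cell cannot be told apart. Genes of DNA replication and G1/S fell in 19 of 37 cases with 5 rising (median −0.16), in 10 with library totals alone. FEN1, the flap endonuclease, had 68.3, 66.4 and 70.5 CPM with GSK-J4, against 89.5, 89.5 and 88.7 CPM with DMSO (log2FC −0.38 ± 0.06, adjusted p = 2.7e-06), and CDC25A and MCM7 fell, with log2FC −0.31 ± 0.05 and −0.24 ± 0.05. Going the other way were GINS1 of the replicative helicase (36.5, 39.7 and 42.9 CPM with GSK-J4, against 26.6, 25.3 and 23.2 CPM with DMSO; log2FC 0.66 ± 0.10, adjusted p = 8.7e-08), CCNE2, cyclin E2 (0.33 ± 0.08), and E2F1 (0.29 ± 0.06), and the count of rises was 3 without GSK-J4 replicate 2, DMSO replicate 1 or DMSO replicate 2.

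Among 18 D cyclins, kinases and kinase inhibitors 5 rose and 4 fell. CDKN1A, p21, had 17.6, 26.3 and 21.7 CPM with GSK-J4, against 9.23, 8.14 and 8.92 CPM with DMSO (log2FC 1.32 ± 0.17, adjusted p = 3.3e-09), and CDKN1C, p57, had 19.9, 15.4 and 14.7 CPM with GSK-J4, against 8.69, 8.53 and 11.9 CPM with DMSO (log2FC 0.79 ± 0.17, adjusted p = 0.00018). Both inhibitors were higher in every GSK-J4 library. CCND2, with 309 ± 12.6 CPM with GSK-J4, against 249 ± 9.62 CPM with DMSO, rose by 0.31 ± 0.06, and CDK6 by 0.36 ± 0.05, while CDK4 and CCND3 fell, with log2FC −0.32 ± 0.07 and −0.30 ± 0.08. Other p53 targets did not move with CDKN1A as a group, since of 20 genes 4 rose and 5 fell (median −0.01), or 8 rose with library totals alone. TP53INP1 and TNFRSF10B, the death receptor DR5, rose by 0.59 ± 0.07 and 0.61 ± 0.11, whereas BTG2, FAS and PPM1D fell, with log2FC −0.37 ± 0.05, −0.33 ± 0.06 and −0.39 ± 0.08. Of 27 DNA repair genes 6 rose and 4 fell. XRCC2 of homologous recombination had 74.6, 83.1 and 70.6 CPM with GSK-J4, against 46.99, 45.5 and 48.4 CPM with DMSO (log2FC 0.70 ± 0.09, adjusted p = 1.9e-09), ATM, the kinase of double-strand breaks, rose by 0.53 ± 0.07, and BRCA1 by 0.38 ± 0.07. MSH6 of mismatch repair fell, with log2FC −0.42 ± 0.06. The count of repair genes called higher was 3 without DMSO replicate 3 and 10 with library totals alone.

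Apoptosis regulators were called in both directions. Of 14 BCL2 family genes 2 rose, or 4 with library totals alone, and 4 fell. HRK, a pro-apoptotic member, had 3.77, 4.64 and 4.06 CPM with GSK-J4, against 1.22, 1.81 and 1.72 CPM with DMSO (log2FC 1.38 ± 0.30, adjusted p = 0.00024), and BCL2, which protects, had 102, 112 and 109.5 CPM with GSK-J4, against 70.6, 77.9 and 66.3 CPM with DMSO (log2FC 0.58 ± 0.07, adjusted p = 2.8e-10). PMAIP1 (NOXA), BMF and BID, which promote apoptosis, fell, with log2FC −0.28 ± 0.07, −0.29 ± 0.07 and −0.36 ± 0.09. MCL1, on which myeloma cells often depend, had 796 ± 16.2 CPM with GSK-J4, against 788 ± 21.1 CPM with DMSO (log2FC 0.01 ± 0.05, adjusted p = 0.866), and BCL2L11 (BIM) had a log2FC of −0.10 ± 0.07 (adjusted p = 0.233), neither past the threshold. Of 21 death receptor and caspase genes 5 rose, or 3 without GSK-J4 replicate 2, and 4 fell. CASP8, the initiator caspase, had 222, 219 and 222 CPM with GSK-J4, against 153, 147 and 146 CPM with DMSO (log2FC 0.57 ± 0.06, adjusted p = 3.2e-11), and CASP6 fell, with log2FC −0.56 ± 0.11.

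Plasma cell markers were present in both groups. JCHAIN, the joining chain of secreted antibodies, lay between 11030 and 12170 CPM over the 6 libraries, SDC1 (CD138) between 132.5 and 149.9 CPM, and TNFRSF17 (BCMA) between 172.4 and 189.7 CPM. Of 27 transcription factors of the lineage 8 rose and 7 fell. KLF2 had 79.99, 77.3 and 90.8 CPM with GSK-J4, against 39.9, 43.3 and 42.6 CPM with DMSO (log2FC 0.98 ± 0.09, adjusted p = 2.3e-13), and MEF2C rose by 0.42 ± 0.06. BHLHE41 had 48.5, 53.03 and 47.3 CPM with GSK-J4, against 85.4, 91.5 and 79.3 CPM with DMSO (log2FC −0.79 ± 0.08, adjusted p = 1.5e-11), and ID2, which blocks helix-loop-helix factors, fell, with log2FC −0.67 ± 0.08. PRDM1 (BLIMP1), which fixes the plasma cell programme, had 201, 203 and 205 CPM with GSK-J4, against 259, 258 and 254 CPM with DMSO (log2FC −0.34 ± 0.06, adjusted p = 1.5e-05), with no overlap. IRF4, on which myeloma cells depend, was called lower, with log2FC −0.17 ± 0.06 (not called without GSK-J4 replicates 2 or 3 or DMSO replicate 3, each left out in turn (log2FC −0.16)), and XBP1 rose by 0.24 ± 0.06. MAF had a log2FC of 0.03 ± 0.07 (adjusted p = 0.769). Without GSK-J4 replicate 3 the count of factors called higher was 5, and with library totals alone 4 were called lower.

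Surface antigens of myeloma were called in 8 of 26 cases, 4 higher and 4 lower, which is near the background (9 higher with library totals alone). CD28, a T cell costimulator that some myeloma cells carry, had 21.2, 22.1 and 19.2 CPM with GSK-J4, against 9.51, 11.2 and 7.51 CPM with DMSO (log2FC 1.13 ± 0.14, adjusted p = 1.4e-09). CXCR4, the chemokine receptor for homing to marrow, had 16.2, 13.7 and 13.4 CPM with GSK-J4, against 26.9, 22.6 and 25.98 CPM with DMSO (log2FC −0.80 ± 0.13, adjusted p = 1.2e-06). Both pairs of groups were apart. CD38 and IL6R, the interleukin receptor chain, rose by 0.41 ± 0.10 and 0.59 ± 0.16, and CD59 and CD81 fell, with log2FC −0.40 ± 0.06 and −0.24 ± 0.05. Of 11 immunoglobulin constant genes and partners 4 fell and none rose, or 2 rose with library totals alone or only the libraries compared. The constant genes among the 4 were IGHG1, IGHG2 and IGHG4 (IGHG4 −1.08 ± 0.37; not called without GSK-J4 replicates 2 or 3 or DMSO replicate 2, each left out in turn (log2FC −1.01 to −0.82)), and the other was IGLL5. IGLL5 had 135 ± 3.31 CPM with GSK-J4, against 178 ± 4.87 CPM with DMSO and IGHG2 had 78.9 ± 4.49 CPM with GSK-J4, against 122 ± 1.73 CPM with DMSO (log2FC −0.40 ± 0.06 and −0.63 ± 0.09). IGHG1 and IGHG2 resemble each other and may share reads.

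Few genes of antigen presentation were called, while NF-kB genes were called in both directions. Of 15 genes of MHC class I presentation 2 fell and none rose, among them ERAP2, an ER peptidase that trims peptides (−0.32 ± 0.07), while HLA-B had log2FC −0.10 ± 0.06 and did not pass. Of 13 class II genes 1 was called higher, HLA-DQB1 (0.17 ± 0.06; not called without GSK-J4 replicate 1 or DMSO replicates 1 or 2, each left out in turn (log2FC 0.06 to 0.15)), and its groups overlap. Interferon-stimulated genes were called in 6 of 20 cases, 3 higher and 3 lower, which is near the background. XAF1 rose with 46.9, 49.1 and 47.3 CPM with GSK-J4, against 22.3, 17.8 and 17.5 CPM with DMSO (log2FC 1.31 ± 0.11, adjusted p = 2.2e-15) and STAT2 by 0.48 ± 0.12, while BST2 fell, with log2FC −0.32 ± 0.07. Of 18 NF-kB genes 6 fell, or 2 with library totals alone and 3 without GSK-J4 replicate 3, and 3 rose. NFKBIA, the feedback inhibitor, had 207, 207 and 197 CPM with GSK-J4, against 313, 315 and 317 CPM with DMSO (log2FC −0.63 ± 0.05, adjusted p = 1.1e-14), and NFKB1 fell, with log2FC −0.32 ± 0.06. The count of rises was 1 without GSK-J4 replicate 1 or 3 and 5 with library totals alone.

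Several feedback genes of ERK signalling were lower. DUSP6, the phosphatase of ERK, had 47.1, 41.9 and 48.02 CPM with GSK-J4, against 82.6, 82.3 and 89.98 CPM with DMSO (log2FC −0.89 ± 0.08, adjusted p = 3.1e-14). DUSP2 had 30.4, 29.3 and 34.6 CPM with GSK-J4, against 66.3, 62.1 and 70.6 CPM with DMSO (log2FC −1.07 ± 0.10, adjusted p = 3.8e-13), and EGR1, an immediate early factor, 129.6, 107 and 99.2 CPM with GSK-J4, against 201, 184 and 186 CPM with DMSO (log2FC −0.77 ± 0.10, adjusted p = 3.1e-09). None of the groups overlapped. Over the list of 23 immediate early and ERK feedback genes 8 fell and 6 rose, so the list did not move one way (median 0.04). FOSB rose with 55.2, 33.9 and 28.1 CPM with GSK-J4, against 14.4, 22.1 and 8.76 CPM with DMSO (log2FC 1.35 ± 0.19, adjusted p = 7.3e-08), FOSL2 by 0.53 ± 0.14 and DUSP5 by 0.48 ± 0.08. Of 24 genes of the TGF-beta and BMP response 7 rose, or 11 with library totals alone, and 4 fell. The direct targets ID1 and SMAD7 fell, with log2FC −1.10 ± 0.21 and −0.51 ± 0.09, and the ligand TGFB1 had −0.48 ± 0.08. BAMBI, a decoy receptor, and SKIL, a repressor of SMADs, rose by 0.60 ± 0.11 and 0.48 ± 0.09. Among 11 KLF factors 6 rose and 3 fell, with KLF6, KLF7, KLF9 and KLF12 at 0.44, 0.54, 0.46 and 0.59.

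Genes of the enzymes around the target of GSK-J4 changed in 7 of 22 cases, 3 higher and 4 lower, which is near the background. With each library left out in turn 1 or 2 were called higher (1 without GSK-J4 replicate 2 or DMSO replicate 3), and 2 were called lower without GSK-J4 replicate 3. EED, a core subunit of the methyltransferase complex PRC2, had 35.05, 36.7 and 35.1 CPM with GSK-J4, against 56.5, 55.5 and 62.8 CPM with DMSO (log2FC −0.71 ± 0.08, adjusted p = 7.6e-11), with the groups apart. KDM6B, a target of the inhibitor, had 13.3, 15.2 and 13.2 CPM with GSK-J4, against 9.37, 10.5 and 8.29 CPM with DMSO (log2FC 0.56 ± 0.16, adjusted p = 0.0047). KDM6A, the other target, had 34.7, 32.3 and 32.3 CPM with GSK-J4, against 29.9, 31.6 and 28.01 CPM with DMSO (log2FC 0.15 ± 0.10, adjusted p = 0.3) and did not pass. EZH2, the catalytic subunit of PRC2, had a log2FC of 0.04 ± 0.06 (adjusted p = 0.627). RBBP7 was called lower, with log2FC −0.21 ± 0.06, but with library totals alone EED was the only gene of this list called lower and 8 were called higher, against 1 called higher with DESeq2. Of 17 other JmjC demethylase genes 4 were called higher and 1 lower. JMJD6 rose by 0.39 ± 0.11 and KDM4C by 0.39 ± 0.11, while KDM7A (0.64 ± 0.24) and KDM4A (0.29 ± 0.11) were not called with DESeq2 nor in 5 and 4 of the 6 fits that leave out a library. KDM5B had a log2FC of 0.28 ± 0.30 (adjusted p = 0.531). Of 7 HOX genes that were tested, classical targets of H3K27 methylation, none was called, and HOXB6, with 2.34, 1.48 and 0.5297 CPM with GSK-J4, against 2.44, 2.07 and 3.13 CPM with DMSO, came nearest (log2FC −0.79 ± 0.39, adjusted p = 0.113; called without GSK-J4 replicate 1, at −1.33). Replication-dependent histone genes fell in 3 of 12 cases and rose in none, H2BC4 with log2FC −0.52 ± 0.12 and H2BC12 with −0.27 ± 0.07.

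Outside these lists, the largest rises were of genes at low levels. GRB10, an adaptor that dampens insulin receptor signalling, had 8.45, 6.86 and 8.65 CPM with GSK-J4, against 1.22, 0.775 and 1.41 CPM with DMSO (log2FC 2.82 ± 0.30, adjusted p = 1.6e-11). TRPM8, a cation channel opened by cold, had 3.42, 2.78 and 5.83 CPM with GSK-J4, against 0.815, 0.646 and 1.25 CPM with DMSO (log2FC 2.16 ± 0.38, adjusted p = 7.4e-06). FAM200C had 13 counts with GSK-J4, against 2 with DMSO, 8.41 times as much (95% interval from counting, 1.90 to 76.7). Several of the largest falls were also of genes at low levels. RHOV, a small GTPase, had 1.98, 1.298 and 0.5297 CPM with GSK-J4, against 3.94, 5.296 and 3.91 CPM with DMSO (log2FC −1.79 ± 0.37, adjusted p = 0.00012), and GPR37 had 1.26, 2.23 and 0.5297 CPM with GSK-J4, against 4.07, 4.65 and 4.69 CPM with DMSO. HSD11B2, which inactivates cortisol, had 9.17, 10.01 and 11.1 CPM with GSK-J4, against 21.9, 24.4 and 28.2 CPM with DMSO (log2FC −1.29 ± 0.15, adjusted p = 1.5e-10), and MIR17HG, the host transcript of an oncogenic microRNA cluster, 5.39, 7.23 and 5.297 CPM with GSK-J4, against 14.3, 13.7 and 15.8 CPM with DMSO (log2FC −1.28 ± 0.17, adjusted p = 1.9e-08). In these genes no GSK-J4 library reached the DMSO range, which the rule that named them required. SHROOM2, CASKIN1 and the mitochondrial tRNA gene MT-TW fell, with log2FC −1.27 ± 0.26, −1.31 ± 0.40 and −1.52 ± 0.33. The pseudogenes RPL38P4 and SLC7A5P1 fell, with log2FC −1.50 ± 0.41 and −1.46 ± 0.29 and may share reads with their parents. Other large falls lost their call when single libraries were left out. DUBR was called lower (−1.52 ± 0.60) but not with DESeq2 or library totals alone, and it was not called without GSK-J4 replicates 1 or 2 or DMSO replicates 1, 2 or 3, each left out in turn (log2FC −1.60 to −1.23). SFRP2, a secreted Wnt antagonist, was not called without GSK-J4 replicates 1 or 2, each left out in turn (log2FC −1.13 to −1.06), against −1.38 ± 0.42 with all libraries, and TLCD1 (−1.27 ± 0.45) was not called without GSK-J4 replicates 1 or 3 or DMSO replicate 1, each left out in turn (log2FC −1.15 to −1.09). LINC01320 (−1.49 ± 0.47) was not called without DMSO replicate 3 (log2FC −0.93), and SALL1 (−1.27 ± 0.39) was not called without DMSO replicate 2 (log2FC −0.78).

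The genes of this paragraph were chosen after their values were seen, as the 15 largest rises and 15 largest falls among called genes with an average of at least 5 log2 CPM and groups apart that no list holds, with 2 further identifiers named last. ASS1, which makes argininosuccinate for arginine synthesis, had 233, 222 and 219 CPM with GSK-J4, against 86.8, 77.4 and 84.2 CPM with DMSO (log2FC 1.44 ± 0.06, adjusted p = 7.8e-29). NAMPT, which salvages nicotinamide for NAD, had 326, 309 and 312 CPM with GSK-J4, against 156, 153 and 155 CPM with DMSO (log2FC 1.03 ± 0.06, adjusted p = 3.8e-23), and CCPG1, a receptor for autophagy of the ER, 128, 120.0 and 135 CPM with GSK-J4, against 57.7, 55.8 and 56.02 CPM with DMSO (log2FC 1.17 ± 0.08, adjusted p = 1.6e-19). All GSK-J4 libraries lay above DMSO, which the choice of these genes required. KIF21B, FYN and RHOB rose by 1.35 ± 0.08, 1.00 ± 0.08 and 0.95 ± 0.08. MAT2A, which makes S-adenosylmethionine, the methyl donor of histone methylation, fell with 443, 452 and 462 CPM with GSK-J4, against 812, 784 and 819.8 CPM with DMSO (log2FC −0.83 ± 0.06, adjusted p = 8.2e-19). FABP5, which carries fatty acids, had 63.1, 61.6 and 61.4 CPM with GSK-J4, against 125, 121 and 124 CPM with DMSO (log2FC −0.99 ± 0.07, adjusted p = 5.2e-19). HPDL, GEMIN5 and PYCR3 fell, with log2FC −1.01 ± 0.12, −1.01 ± 0.09 and −0.82 ± 0.11, and the ribosome biogenesis genes WDR74 and FTSJ3 had −0.91 ± 0.07 and −0.80 ± 0.06. The smallest p of all falls belonged to the identifier ENSG00000117289, for which the name tables used here give no symbol. It had 208, 173 and 184 CPM with GSK-J4, against 589.5, 569 and 616 CPM with DMSO (log2FC −1.65 ± 0.08, adjusted p = 8.1e-26). The lowest log2FC was that of IGKV3D-11, an immunoglobulin light chain segment, with 0.719, 0.185 and 0 CPM with GSK-J4, against 1.76, 22.9 and 0.469 CPM with DMSO. Its groups overlap, 1 DMSO library stands far above the others, and without that library, DMSO replicate 2, its log2FC was −1.88 and it was not called.

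The response at 24 h was then set against that at 6 h, with the DMSO libraries of each time as its own baseline. GSK-J4 called 15 genes at 1 h (5 higher, 10 lower), 344 at 3 h (210 higher, 134 lower) and 2947 at 6 h (1422 higher, 1525 lower). Of these 2947 genes 1924 were called again at 24 h, 1847 in the same direction and 77 in the opposite one. A further 2705 genes were called at 24 h and not at 6 h, but the difference between the times was itself called for 384 of them. The difference was called for 832 genes (5.75%), 393 higher (2.72%) and 439 lower (3.04%) at 24 h than at 6 h. All 77 genes that changed direction were among them. Of the genes called in the same direction at both times 191 had a called difference, and 127 of these were larger at 24 h.

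The fold change over DMSO of several stress genes was smaller at 24 h than at 6 h. For some of them the DMSO level itself had changed between the times. The regulators of the integrated stress response were lower in the 24 h effect in 7 of 17 cases and higher in 1, and the amino acid synthesis genes lower in 7 of 19. ATF3, a stress factor downstream of ATF4, had log2FC 0.06, 2.03, 2.22 and −0.25 at 1, 3, 6 and 24 h (difference between 24 h and 6 h −2.47 ± 0.16, adjusted p = 2.3e-18). It had 94.1 ± 9.04 CPM with GSK-J4, against 112 ± 5.103 CPM with DMSO at 24 h, and 42.1 ± 4.06 CPM with GSK-J4, against 8.93 ± 2.39 CPM with DMSO at 6 h, so its level was higher at 24 h than at 6 h in both groups, and more so with DMSO. Its log2FC at 24 h was not called without GSK-J4 replicate 1 or DMSO replicate 3, each left out in turn (log2FC −0.22 to −0.18) and not called with library totals alone. CCNG2, an unusual cyclin that restrains the cycle, had 0.01, −0.53, 1.70 and −0.59 (difference −2.29 ± 0.33, adjusted p = 9.5e-07), and its level too was higher at 24 h in both groups, with 18.6 ± 0.262 CPM with GSK-J4, against 27.9 ± 1.096 CPM with DMSO at 24 h, and 5.23 ± 0.255 CPM with GSK-J4, against 1.62 ± 1.13 CPM with DMSO at 6 h. The log2FC of PMAIP1 also changed sign, with −0.28 at 24 h and 1.08 at 6 h (difference −1.36 ± 0.10, adjusted p = 9.2e-17). It had 210.0 ± 11.8 CPM with GSK-J4, against 256 ± 15.5 CPM with DMSO at 24 h, and 216 ± 6.42 CPM with GSK-J4, against 103 ± 12.6 CPM with DMSO at 6 h, close values with GSK-J4 and a higher one with DMSO at 24 h. SESN2, DDIT3 (CHOP) and VEGFA were called higher at both times with a smaller log2FC at 24 h, with differences of −1.39, −1.11 and −0.50. SLC30A1 did likewise (−1.10). It had 199.3 ± 4.47 CPM with GSK-J4, against 113.9 ± 3.50 CPM with DMSO at 24 h. At 6 h it had 232.7 ± 6.01 CPM with GSK-J4, against 61.65 ± 10.2 CPM with DMSO. Its level was thus somewhat lower with GSK-J4 and higher with DMSO at 24 h. Of 8 metallothioneins 1, MT1X, had a called difference (−1.93 ± 0.21). MT2A had −1.37 ± 0.45 and fell just short of a call (adjusted p = 0.0532). The differences of MT1B and MT1M could not be estimated, since both had 0 CPM with DMSO at both times. Those of MT1G, MT1H, MT1E and MT1F lay between −0.79 (MT1G) and 0.25 (MT1F), with SE from 0.55 (MT1G) to 1.83 (MT1F). Errors of this size are too wide to tell whether the effect on these genes changed between the times. ISL2, CRHR2 and the mitochondrial tRNA gene MT-TI, called higher at 6 h, were not called at 24 h (differences −2.42, −2.38 and −2.55), and MIRLET7A1HG, host of a let-7 microRNA, had −1.12 ± 0.34 at 24 h and 0.94 ± 0.40 at 6 h.

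For other genes a difference from DMSO appeared or grew between 6 h and 24 h. BHLHA15 (MIST1), a factor that builds up the secretory machinery of plasma cells, had log2FC 0.04, −0.03, −0.40 and 1.29 at 1, 3, 6 and 24 h, and 12.6, 14.3 and 13.4 CPM with GSK-J4, against 6.11, 4.65 and 5.79 CPM with DMSO at 24 h (log2FC 1.29 ± 0.18, adjusted p = 5.9e-08; difference 1.68 ± 0.26, adjusted p = 5.6e-06). At 6 h BHLHA15 had 7.24 ± 0.565 CPM with GSK-J4, against 9.44 ± 2.65 CPM with DMSO. Its level was thus higher with GSK-J4 and lower with DMSO at 24 h than at 6 h. Of the translocation and COPII genes 8 of 25 were higher in the 24 h effect than in the 6 h effect and none lower, SEC24D with a difference of 0.55 ± 0.10, adjusted p = 9.1e-05. Of the G2/M genes 8 of 41 were lower at 24 h and none higher, CCNB1 with a difference of −0.88 ± 0.19, adjusted p = 0.0009 and KIF20A with −0.99. EED had −0.02 ± 0.07 at 6 h (difference −0.68 ± 0.11, adjusted p = 6.2e-06). HSD11B2 had −0.37 ± 0.14 at 6 h (difference −0.92 ± 0.21, adjusted p = 0.00223). NAALAD2 was called higher at 24 h and lower at 6 h (0.77 ± 0.23 and −1.03 ± 0.24). It had 6.19 ± 0.742 CPM with GSK-J4, against 3.58 ± 0.727 CPM with DMSO at 24 h. At 6 h it had 3.125 ± 0.444 CPM with GSK-J4, against 6.45 ± 0.654 CPM with DMSO, so the DMSO level changed as well. TEF, a clock output factor, was called lower at 6 h (−1.18 ± 0.37) and not called at 24 h (0.61 ± 0.35, adjusted p = 0.182), where its groups overlap. The non-coding transcripts ZNF584-DT and CKMT2-AS1 had 1.74 ± 0.29 and 1.70 ± 0.36 at 24 h and 0.21 ± 0.17 and 0.20 ± 0.21 at 6 h, but both were at lower levels at 24 h than at 6 h in both groups. ZNF584-DT had 5.66 ± 0.0882 CPM with GSK-J4, against 1.72 ± 0.8005 CPM with DMSO at 24 h, and 14.1 ± 2.69 CPM with GSK-J4, against 12.1 ± 0.591 CPM with DMSO at 6 h. CKMT2-AS1 had 3.36 ± 1.395 CPM with GSK-J4, against 1.04 ± 0.242 CPM with DMSO at 24 h, and 7.02 ± 0.812 CPM with GSK-J4, against 6.14 ± 1.07 CPM with DMSO at 6 h. In the DMSO libraries of 24 h they had log2FC −2.91 and −2.64 against the 3 libraries labelled T0.

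**Figure D4:**
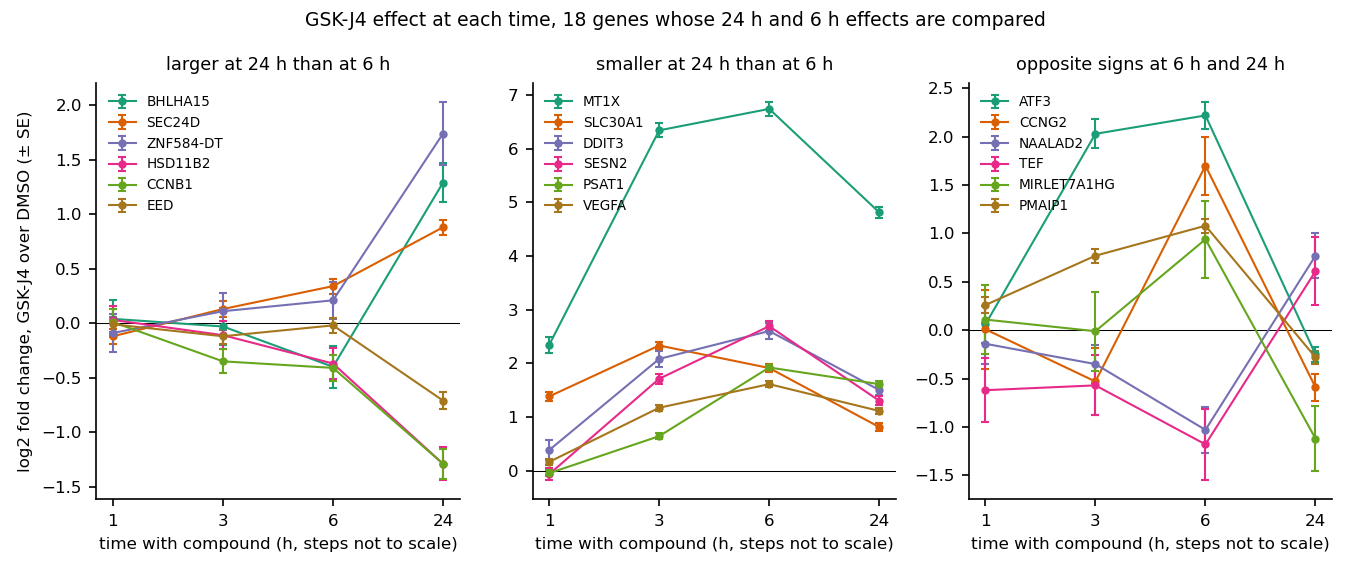
Log2 fold change of GSK-J4 over the DMSO libraries of the same time (y axis, bars are ± SE) at 1, 3, 6 and 24 h (x axis, steps not to scale) for 18 genes. The fold changes of BHLHA15, ZNF584-DT and SEC24D go up and those of CCNB1, HSD11B2 and EED down mainly between 6 h and 24 h, those of MT1X, SLC30A1, DDIT3, SESN2, PSAT1 and VEGFA stay above 0 but are lower at 24 h than at 6 h, and those of ATF3, CCNG2, MIRLET7A1HG and PMAIP1 cross 0 downward while those of NAALAD2 and TEF cross it upward; the DMSO level of a gene can itself differ between the times.

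ZnSO4 at 24 h is a zinc treatment without GSK-J4, and both were compared directly, since each against DMSO would share the DMSO libraries. The direct contrast called 3546 genes (24.5%), 1734 higher (12%) and 1812 lower (12.5%) with GSK-J4 than with ZnSO4. All 8 metallothioneins were lower with GSK-J4. MT2A had 528, 538 and 577 CPM with GSK-J4, against 956, 1013 and 1166 CPM with ZnSO4 (log2FC −0.93 ± 0.09, adjusted p = 9.5e-14), and MT1E had 21.9, 25.6 and 25.1 CPM with GSK-J4, against 128, 133 and 159 CPM with ZnSO4 (log2FC −2.53 ± 0.12, adjusted p = 5.6e-25). SLC30A1 was lower as well, with 204, 198 and 195 CPM with GSK-J4, against 561, 599 and 628 CPM with ZnSO4 (log2FC −1.58 ± 0.07, adjusted p = 1.2e-28). HMOX1 had 184, 253 and 248 CPM with GSK-J4, against 529, 554 and 602 CPM with ZnSO4 (log2FC −1.30 ± 0.11, adjusted p = 2.9e-15), and CLU, a secreted chaperone, 11.1, 9.64 and 7.06 CPM with GSK-J4, against 25.8, 34.6 and 35.4 CPM with ZnSO4 (log2FC −1.79 ± 0.17, adjusted p = 2.1e-13). ABCB1, the drug efflux pump, had 1.26, 1.67 and 2.12 CPM with GSK-J4, against 7.505, 6.22 and 6.14 CPM with ZnSO4 (log2FC −1.96 ± 0.32, adjusted p = 2.4e-06), while GSK-J4 against DMSO gave 0.01 ± 0.39 (adjusted p = 0.988).

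The amino acid genes were on the GSK-J4 side. Of 19 synthesis genes 15 were higher with GSK-J4 than with ZnSO4 and 2 lower, of 17 regulators 10 and none, of 13 transporters 8 and 1, and of 20 cytosolic tRNA synthetases 12 and 3. PSAT1 had 365, 411 and 407 CPM with GSK-J4, against 127, 120.1 and 128 CPM with ZnSO4 (log2FC 1.66 ± 0.06, adjusted p = 6.7e-32). GRB10 had 8.45, 6.86 and 8.65 CPM with GSK-J4, against 1.001, 0.583 and 1.89 CPM with ZnSO4 (log2FC 2.81 ± 0.34, adjusted p = 1.6e-09), and INHBE had 6.83, 6.12 and 6.003 CPM with GSK-J4, against 1.001, 1.17 and 0.709 CPM with ZnSO4 (log2FC 2.68 ± 0.39, adjusted p = 1.6e-07). The ZnSO4 libraries of both lay close to the DMSO libraries given above. GABRG1, a subunit of the GABA receptor, had 4.13, 5.75 and 5.83 CPM with GSK-J4, against 0.2502, 0.583 and 1.65 CPM with ZnSO4 (log2FC 2.64 ± 0.42, adjusted p = 1.3e-06), and BHLHA15 12.6, 14.3 and 13.4 CPM with GSK-J4, against 3.002, 2.72 and 3.54 CPM with ZnSO4 (log2FC 2.12 ± 0.23, adjusted p = 5.4e-11). Lower with GSK-J4 were 23 of 40 ribosome biogenesis genes, 26 of 41 G2/M genes and 16 of 19 glycolysis genes, with none, 1 and none higher. LDHA had 1062, 1076 and 1021 CPM with GSK-J4, against 1651, 1655 and 1652 CPM with ZnSO4 (log2FC −0.65 ± 0.05, adjusted p = 1.8e-17), and CCNB1 14.7, 15.2 and 13.6 CPM with GSK-J4, against 32.3, 34.8 and 32.6 CPM with ZnSO4 (log2FC −1.20 ± 0.15, adjusted p = 6e-09). Heat shock genes were lower with GSK-J4 in 13 of 23 cases and higher in 1. IL21R, an interleukin receptor called higher in this contrast, was close to 0 throughout, with 0.539, 0.556 and 1.06 CPM with GSK-J4, against 0.2502, 0 and 0 CPM with ZnSO4. It was not called without GSK-J4 replicate 3 (log2FC 2.59), ZnSO4 replicate 2 (2.39) or ZnSO4 replicate 3 (2.52).

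**Figure D5:**
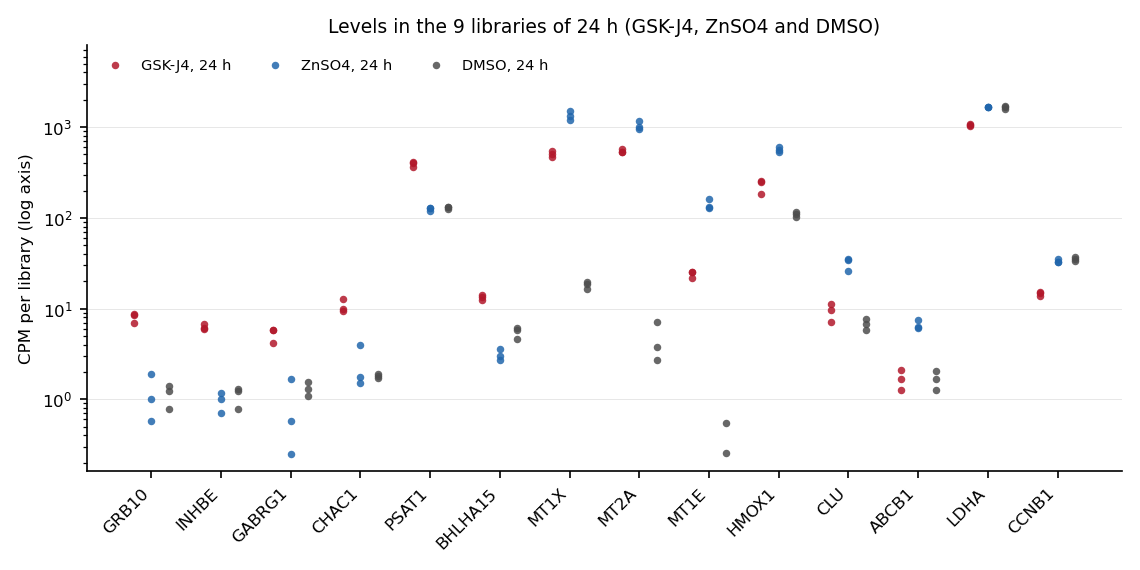
CPM on a log axis (y) in the 3 libraries each of GSK-J4 (red, left), ZnSO4 (blue, middle) and DMSO (grey, right) at 24 h for 14 genes (x). GRB10, INHBE, GABRG1, CHAC1, PSAT1 and BHLHA15 are high with GSK-J4 alone, metallothioneins and HMOX1 are highest with ZnSO4, CLU and ABCB1 are high with ZnSO4, and LDHA and CCNB1 are low with GSK-J4. The DMSO library of MT1E that holds 0 CPM is not drawn.

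Markers of other cell types were examined for 9 genes that passed the filter, and none was called in this comparison (median log2FC 0.51). The collagen genes COL1A1, COL1A2 and COL3A1 were called higher when only the libraries compared were fitted, 1 of the 9 markers was called higher with library totals alone, 2 without GSK-J4 replicate 1 or DMSO replicate 1, and 1 without DMSO replicate 2. The summed level of the markers was 120.8 to 159.4 CPM with GSK-J4, against 97.5 to 138.9 CPM with DMSO. The collagen genes COL1A1, COL1A2 and COL3A1 had counts in all libraries. COL1A1 had 16.7, 27.6 and 32.7 CPM with GSK-J4, against 22.1, 19.6 and 4.85 CPM with DMSO (log2FC 0.69 ± 0.30, adjusted p = 0.071) and was lowest in DMSO replicate 3, as was COL1A2 with 13.5, 22.1 and 33.2 CPM with GSK-J4, against 19.3, 18.3 and 2.97 CPM with DMSO. EPCAM, an epithelial marker, had 57.9, 53.96 and 49.8 CPM with GSK-J4, against 61.1, 55.8 and 61.6 CPM with DMSO. The part of these transcripts in the results above was not tested.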

How the data were processed

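Strand, counting tool and annotation are not named in the labels. The authors deposited raw counts per gene for 39 libraries, 13 groups of 3, with Ensembl identifiers. Reads were aligned with HISAT2 2.1.0 to hg19, per the submitters' processing notes. Symbols came from a name table for 51996 identifiers and from GENCODE 29 for 342, and 5435 had none. Counts were tested in R 4.3.3 with edgeR 4.0.16, using TMM factors, a filter with a minimum count of 10, 1 fit of all libraries and the quasi-likelihood test with Benjamini-Hochberg adjustment over the 14460 genes tested, and a call at an adjusted p under 0.05. The fit had 26 residual degrees of freedom and a biological coefficient of variation of 4.8%. The standard error is the size of log2FC divided by the square root of F.

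Groups followed the labels and n is 3 libraries in each. The comparisons were GSK-J4 against DMSO at 24 h, the difference of that effect from the effect at 6 h, and GSK-J4 against ZnSO4 at 24 h. No replicates were duplicates, since pairs within a group differed by a chi-square of 1.205 to 7.323 per gene. The scripts were tested on simulated data. Alternatives were DESeq2 1.42.0, RLE size factors, library totals alone, no filter, fewer libraries in the fit, a 2-fold minimum and leaving out each library.

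The genes compared, the 50 gene lists (1239 of 1260 entries matched) and the naming rule were chosen with earlier results of these data known. Named were the 15 largest rises and 15 largest falls called, with an average of at least 1 log2 CPM and groups apart, 6 in each direction for the other comparisons, up to 6 members of each list by smallest p with any member called against the majority, and a fixed set of zinc, stress and plasma cell genes. Immunoglobulin segments were left out of the first rule. Some genes that the rule names are not reported here.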

Additional observations from a re-analysis of the deposited data

Results flagged for a closer look

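The effect of GSK-J4 differed between 24 h and 6 h in 832 genes by edgeR's quasi-likelihood test of the difference itself, with Benjamini-Hochberg adjustment, and the 6 largest differences in each direction are given here as log2FC at 24 h minus log2FC at 6 h. The effect was higher at 24 h for NAALAD2, a peptidase, by 1.81, TEF by 1.79, IQANK1 by 1.75, BHLHA15 by 1.68, ZNF584-DT by 1.53 and CKMT2-AS1 by 1.49. It was lower at 24 h for the mitochondrial tRNA gene MT-TI with −2.55, ATF3 with −2.47, ISL2 with −2.42, CRHR2, a receptor for stress peptides, with −2.38, CCNG2 with −2.29 and MIRLET7A1HG with −2.06. NAALAD2 and TEF were called lower at 6 h, and ATF3 and CCNG2 were called higher at 6 h and lower at 24 h, ATF3 not without GSK-J4 24 h replicate 1 (−0.18) or DMSO 24 h replicate 3 (−0.22) nor with library totals alone (−0.15). The DMSO levels of ATF3, CCNG2, ZNF584-DT and CKMT2-AS1 themselves differed between the DMSO libraries of 24 h and the libraries labelled T0 (log2FC 3.71, 4.02, −2.91 and −2.64). So did those of NAALAD2, TEF, IQANK1, BHLHA15 and MIRLET7A1HG (−0.81, −1.05, −1.49, −0.74 and 1.25). MT-TI, ISL2 and CRHR2 were not called in that contrast. With single libraries left out, 5 of these differences were no longer called. TEF lost its call without GSK-J4 24 h replicate 1 (1.38), GSK-J4 6 h replicates 2 (1.74) and 3 (1.72), DMSO 24 h replicate 3 (1.69) and DMSO 6 h replicate 3 (1.63). CRHR2 lost it without GSK-J4 24 h replicates 1 (−2.13) and 3 (−2.30), DMSO 24 h replicates 2 (−2.25) and 3 (−2.35) and DMSO 6 h replicate 2 (−2.27). CKMT2-AS1 lost it without GSK-J4 24 h replicate 3 (1.14) and DMSO 24 h replicate 2 (1.31), MIRLET7A1HG without GSK-J4 6 h replicate 2 (−1.74), and IQANK1 without DMSO 24 h replicate 1 (1.49).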

How the results depend on the processing

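Against DMSO, the count of genes called higher, 2205, was 1435 without the filter on low counts, and the count called lower, 2424, was 1526 with library totals alone. Both counts together, 4629, were 346 at a minimum of 2-fold, 4271 with DESeq2 and 4638 with RLE size factors. Leaving out 1 library at a time gave 3786 to 4165 calls, 1738 to 1903 higher and 2025 to 2317 lower. For the difference between 24 h and 6 h, 393 higher became 196 without the filter and 439 lower became 292 with library totals alone, and leaving out a library gave 635 to 748 calls. Against ZnSO4 it gave 2895 to 3157. The cause was not tested. No named gene reversed under any alternative. Of 398 named genes 9 lost their call with DESeq2, 31 with library totals alone and 30 without the filter. No paired analysis was possible because the labels give no replicate numbers shared between groups. Depth limits genes with few counts: 3 counts correspond to 0.499 to 0.521 CPM with GSK-J4 and 0.341 to 0.408 CPM with DMSO.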
